A study of Mus musculus with 16 samples.

Results

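The binding sites of Sox2 in Oct4-SK reprogramming cells were compared between day 1 and day 5. A site was the summit of a ChIP-seq peak on chromosomes 1 to 19, X or Y. A day 1 site was called kept when a day 5 summit lay within 100 bp and lost when none did, and a day 5 site without a day 1 summit within 100 bp was called gained. The lists held 15219 sites at day 1 and 5793 at day 5, or 21012 of the 227116 summits in the 13 ChIP lists of the series.

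Both samples were OG2 MEFs, mouse embryonic fibroblasts with a GFP reporter driven by the Oct4 promoter. All cells had been transduced with pMX retroviruses for Sox2, Klf4 and Oct4, and were then changed to iCD1, a chemically defined medium, at day 0. Chromatin was crosslinked at day 1 or day 5 and precipitated with a Sox2 antibody, which the sample labels give as the same product for both days while the study's methods name a pair of products. No sort was stated, so each sample was a mixed population in which the virally expressed Sox2 and any Sox2 made by the cells themselves were precipitated together. Each day was sampled by 1 library. Summit lists hold no expression values, so the labelled cell type was not checked against markers. Sox2 ChIP from cells with Oct6 (Oct6-SK) or with Oct4defSox2, an Oct4 mutant impaired in pairing with Sox2 on DNA (Oct4defSox2-SK), in place of Oct4 served for comparison.

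Sox2 is a transcription factor with an HMG box, which binds a short Sox motif in the minor groove of DNA and bends it. In pluripotent cells it pairs with the POU factor Oct4 on a composite SoxOct element, where a Sox element and an octamer stand side by side, and the pair holds the enhancers of the pluripotency genes. AP-1, TEAD and RUNX factors occupy many enhancers of fibroblasts, and Klf4, the third factor of the cocktail, binds GC-rich KLF motifs.

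Most Sox2 sites were not shared between the days. Of the 15219 day 1 sites, 1100 were kept, a share of 7.23% (95% interval 6.83 to 7.65), and 14119 were lost. Of the 5793 day 5 sites, 1101 had been present at day 1, a share of 19% (18 to 20), and 4692 were gained. For scale, 0.0427% of the bases of these chromosomes lay within 100 bp of a day 5 summit and 0.112% within 100 bp of a day 1 summit. Intervals are Wilson 95% intervals for shares and Newcombe 95% intervals for differences in percentage points. They cover counting error among sites only and compare 2 libraries rather than the days themselves. A difference whose interval excluded 0 is called past counting error, and no p-value was computed.

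The sequences of 9 high-scoring sites are given first, because they show the elements on which the comparison turns. In each class these are the 2 highest-scoring sites shown with an exact Sox match and the highest-scoring site with a SoxOct match. All are 201 bases centred on the summit, from the plus strand of GRCm38 (mm10), 5′ to 3′. Capitals mark every motif match, either strand. The score of a summit is the −log10 of its MACS2 p-value.

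By the mean of both days' scores, which ranked the kept sites, the highest was intergenic and 68295 bp away from Sox13, a transcription factor gene and its closest coding gene by start. It scored 57.9 at day 1 and 106 at day 5, the highest score of that day, and its 2 Sox matches lay to one side of the summit. The kept site 164 bp from the start of Mobp, a myelin protein gene, scored 34.7 and 102 and held 3 Sox matches. The kept site 6651 bp from the start of Sox21, a Sox factor of neural progenitors, scored 72.7 and 81.7. Its SoxOct match had 2 mismatches to the consensus.
Kept site nearest to Sox13 at chr1:133492572-133492772: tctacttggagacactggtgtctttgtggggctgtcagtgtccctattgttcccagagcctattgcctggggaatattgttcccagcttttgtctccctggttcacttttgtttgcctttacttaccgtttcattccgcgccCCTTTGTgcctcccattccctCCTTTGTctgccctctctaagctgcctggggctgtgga
Kept site at Mobp at chr9:120149443-120149643: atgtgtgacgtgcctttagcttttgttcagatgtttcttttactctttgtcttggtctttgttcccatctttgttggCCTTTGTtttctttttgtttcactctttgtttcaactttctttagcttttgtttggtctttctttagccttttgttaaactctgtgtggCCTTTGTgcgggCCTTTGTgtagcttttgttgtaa
Kept SoxOct site near Sox21 at chr14:118230279-118230479: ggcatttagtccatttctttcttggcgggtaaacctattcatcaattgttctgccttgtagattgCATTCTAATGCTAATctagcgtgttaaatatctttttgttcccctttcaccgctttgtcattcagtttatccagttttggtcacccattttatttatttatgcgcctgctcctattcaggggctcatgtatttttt

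Among the lost sites, the one nearest to Tnfrsf19, a receptor gene of the TNF receptor superfamily, scored 57.9 at day 1 and held 2 Sox matches on the minus strand. A day 5 summit stood close by but outside the sharing distance. The lost site in an intron of Trbc1, a T cell receptor constant gene, scored 56.7 and held an inverted pair of Sox matches, separated by a single base. Its nearest day 5 summit was 122840 bp away. The highest lost site with SoxOct lay in an intron of Itfg1, 28470 bp from the start of Neto2, an accessory protein of kainate receptors. It scored 45.6, its SoxOct match had 2 mismatches, and the nearest day 5 summit was 424407 bp away.
Lost site nearest to Tnfrsf19 at chr14:60957897-60958097: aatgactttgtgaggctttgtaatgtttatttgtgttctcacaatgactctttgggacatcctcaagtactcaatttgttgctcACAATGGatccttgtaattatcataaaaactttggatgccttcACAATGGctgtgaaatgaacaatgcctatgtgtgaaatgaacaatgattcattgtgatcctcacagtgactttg
Lost site in Trbc1 at chr6:41539548-41539748: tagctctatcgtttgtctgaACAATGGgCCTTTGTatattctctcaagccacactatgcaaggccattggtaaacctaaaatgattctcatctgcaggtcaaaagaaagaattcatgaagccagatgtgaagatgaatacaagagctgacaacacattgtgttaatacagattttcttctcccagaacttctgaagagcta
Lost SoxOct site in Itfg1 at chr8:85729294-85729494: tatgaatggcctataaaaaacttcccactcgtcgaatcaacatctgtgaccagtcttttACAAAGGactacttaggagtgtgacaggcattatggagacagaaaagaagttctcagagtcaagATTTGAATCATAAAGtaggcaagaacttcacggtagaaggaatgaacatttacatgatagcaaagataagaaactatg

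The gained sites shown had no summit at day 1 within 100 bp. The site in a coding exon of Rftn1, a lipid raft protein gene, scored 58.8 at day 5 and held a Sox match near the summit and a RUNX match. The site in an intron of Tex14, a gene of germ cell intercellular bridges, scored 51.6, with a Sox match on the plus strand. A day 1 summit lay 182 bp from it. The gained site nearest to Mtss1, an actin-binding protein gene, scored 32.5 and held a SoxOct match with 0 mismatches. In the same place Oct4 scored 28.9 at day 5 and 31.1 at day 7 but had no summit at day 1, while Oct4defSox2 and Oct4 S151M had day 1 summits there that scored 27.6 and 23.5.
Gained site in Rftn1 at chr17:50036861-50037061: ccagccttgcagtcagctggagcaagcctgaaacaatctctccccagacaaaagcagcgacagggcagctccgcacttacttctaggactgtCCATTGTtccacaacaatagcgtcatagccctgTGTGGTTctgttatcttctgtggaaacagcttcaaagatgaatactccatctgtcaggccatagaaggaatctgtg
Gained site in Tex14 at chr11:87423089-87423289: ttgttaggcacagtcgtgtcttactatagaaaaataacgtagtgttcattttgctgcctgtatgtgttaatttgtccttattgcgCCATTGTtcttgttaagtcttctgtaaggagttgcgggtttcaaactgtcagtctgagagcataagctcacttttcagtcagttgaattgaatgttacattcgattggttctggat
Gained SoxOct site nearest to Mtss1 at chr15:59174310-59174510: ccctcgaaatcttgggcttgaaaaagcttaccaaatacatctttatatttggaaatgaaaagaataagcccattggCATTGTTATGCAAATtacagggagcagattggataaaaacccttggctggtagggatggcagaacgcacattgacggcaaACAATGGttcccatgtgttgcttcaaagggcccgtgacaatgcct

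The remaining named sites fell in the same kinds of place. The kept site at chr10:44716684-44716884, in an exon of Gm47389 and 258036 bp from the start of the repressor gene Prdm1, scored 51.6 and 81.7 and held 2 Sox matches. The highest lost site of all, at chr1:30656497-30656697 between genes, scored 65.8 without a match to any of the 8 motifs and had a day 5 summit 158 bp away. The lost site at chr14:108960573-108960773, 46515 bp from the neuronal gene Slitrk1, scored 64.7 and likewise held no match, and Oct4 scored 89.9 there at day 1 and 8.10 at day 5. Of the gained sites, the highest lay at chr1:4492385-4492585 in a coding exon of Sox17, an endoderm regulator, and scored 79.1. It stood 329 bp from a day 1 summit, and its day 5 peak also held a kept site. Another, at chr14:118230590-118230790, scored 52.8 and stood 311 bp from the kept site near Sox21, in the same day 5 peak. Neither of these gained sites held a motif match.

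High-scoring sites were shared most often. In the top decile of day 1 scores, 28.5% (26.3 to 30.8) were kept, and in the last decile 1.18% (0.750 to 1.86) were. At day 5 the share present at day 1 fell from 50.2% (46.1 to 54.2) in the top decile to 6.91% (5.11 to 9.27) in the last. The median day 1 score was 13.1 at kept and 7.66 at lost sites, and the median day 5 score was 12.7 at kept and 8.19 at gained sites.

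**Figure D1:**
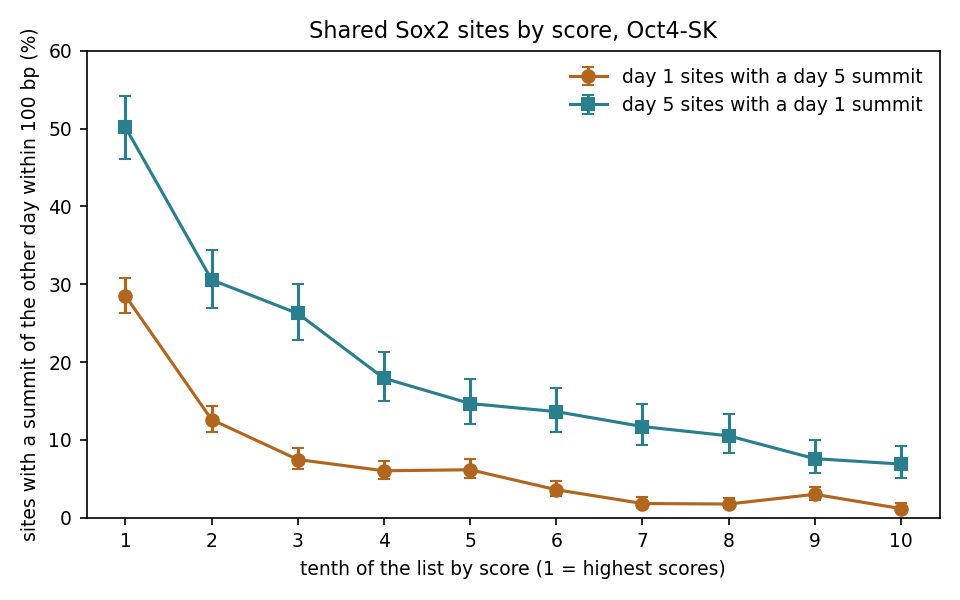
Share of Sox2 sites with a summit of the other day within 100 bp (y, %), by decile of each list ranked by score (x, 1 holds the highest scores); points are shares, bars Wilson 95% intervals. The day 1 share falls from 28.5% to 1.18% and the day 5 share from 50.2% to 6.91%.

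Since the day 1 list was longer, the days were also compared at equal numbers of top-ranked summits. With the best 500 of each, 82 day 1 sites (16.4%, 13.4 to 19.9) had a summit among the best 500 of day 5. With 1000 of each the share was 16.0% (13.9 to 18.4), with 2000 it was 17.7% (16.0 to 19.4), and with 4000 it was 15.4% (14.3 to 16.6). At 5793, the whole day 5 list, it was 14.2% (13.3 to 15.1), higher than the 7.23% of the full day 1 list. The intervals at 500, 1000, 2000 and 4000 sites overlapped one another, and that at 2000 did not overlap that at 5793. Against the full list of the other day, 202 of the best 500 day 1 sites (40.4%, 36.2 to 44.8) and 261 of the best 500 day 5 sites (52.2%, 47.8 to 56.5) were shared.

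Kept sites did not hold their rank closely. The Spearman correlation of day 1 and day 5 scores over the 1100 kept sites was 0.218, as a description of sites that share both libraries, and 531 of them (48.3%) scored higher at day 5. Of the kept sites, 434 were in the top decile of day 1 and 291 in the top decile of day 5, while 152 were in both. The top deciles held 1522 day 1 and 580 day 5 sites, so no more than 291 could be in both. Scores were not scaled between the libraries.

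**Figure D2:**
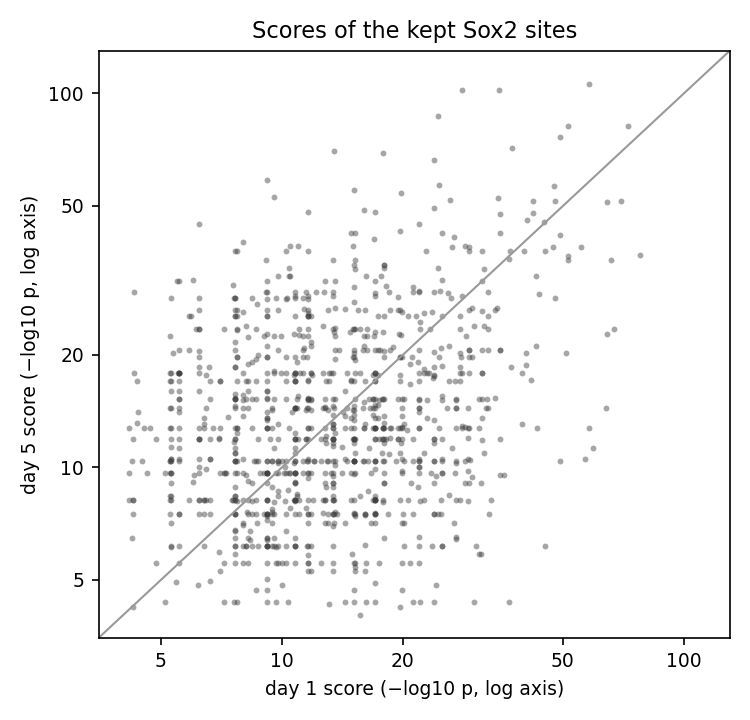
Scores (−log10 p) of the 1100 kept Sox2 sites at day 1 (x) and at day 5 (y), both on log axes; each point is a site and the line marks equal scores. Points lie on both sides of the line, with 531 above it, and the Spearman correlation is 0.218.

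Summits of kept sites stood a median of 40 bp apart, and 60.4% lay within 50 bp. Just inside the limit, 60 day 1 sites had a day 5 summit at 91 to 100 bp, with a median score of 10.8 and a Sox match at 35.0%. Just outside, 53 had one at 101 to 110 bp, with the same median score of 10.8 and a Sox match at 26.4%. A day 5 summit lay at 101 to 250 bp from 364 lost sites (2.58%). For gained sites a day 1 summit lay at 101 to 250 bp in 376 cases (8.01%).

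Sox motifs marked kept sites most and gained sites next. Motifs were searched on both strands within 100 bp of the summit, and the same search in windows 2 kb to either side gave the background. An exact single Sox motif (CCATTGT or CCTTTGT) lay at 437 kept sites (39.7%, 36.9 to 42.6), at 1437 gained sites (30.6%, 29.3 to 32.0) and at 2447 lost sites (17.3%, 16.7 to 18), with backgrounds of 7.86%, 7.18% and 7.44%. Kept exceeded lost sites by 22.4 points (19.5 to 25.4) and gained exceeded lost sites by 13.3 points (11.8 to 14.8), both past counting error. At equal numbers of top-ranked summits these differences were 16.2 points (12.7 to 19.8) and 6.70 points (4.95 to 8.46). At least 2 Sox matches were found at 8.55% (7.03 to 10.3) of kept, 4.60% (4.04 to 5.24) of gained and 1.71% (1.51 to 1.94) of lost sites. The nearest match was a median of 35 bp from the summit at kept, 34 bp at gained and 44 bp at lost sites.

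The composite SoxOct element was rarer. It was searched as CATTGT or CTTTGT, 1 free base and the octamer ATGCAAAT, with up to 2 mismatches, so that a match can overlap an exact octamer or Sox match. It lay at 72 kept sites (6.55%, 5.23 to 8.16), 141 gained sites (3.01%, 2.55 to 3.53) and 359 lost sites (2.54%, 2.30 to 2.82), where backgrounds were 0.455%, 0.650% and 0.620%. The excess of kept over lost sites was 4.00 points (2.66 to 5.64). It was past counting error under each alternative run but varied in size, with 2.61 points (1.04 to 4.55) at equal numbers of top-ranked summits, 2.45 (0.889 to 4.38) with ties reversed, 0.962 (0.464 to 1.79) for up to 1 mismatch, 9.38 (6.92 to 12) for up to 3, 2.02 (1.1 to 3.26) for matches within 50 bp and 2.27 (0.353 to 4.77) for scores of at least 10. Between gained and lost sites the SoxOct difference of 0.462 points (−0.0650 to 1.05) was within counting error, and it depended on the match allowed: it was 0.356 points (0.154 to 0.624) with up to 1 mismatch and −1.22 points (−2.29 to −0.0943) with up to 3. The exact octamer alone lay at 4.36% (3.31 to 5.74) of kept, 2.28% (1.89 to 2.75) of gained and 2.85% (2.59 to 3.14) of lost sites. MORE and MORE+1, the palindromic elements of POU homodimers, were found at 0.727% (0.369 to 1.43) of kept, 0.874% (0.645 to 1.18) of gained and 1.30% (1.12 to 1.5) of lost sites, against backgrounds of 1.05%, 0.735% and 0.779%.

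KLF motifs were found most often at gained sites. An exact match to GGGTGTGGC, GGGCGTGGC, GGGTGGGGC or GGGCGGGGC lay at 267 gained sites (5.69%, 5.06 to 6.39), 27 kept sites (2.45%, 1.69 to 3.55) and 170 lost sites (1.20%, 1.04 to 1.40). Backgrounds were 1.37%, 0.773% and 0.754%, and gained exceeded lost sites by 4.49 points (3.83 to 5.21). At the day 5 summits of kept sites the share was 3.09% (2.22 to 4.28), with a background of 0.772%. The ratio to background was 4.00 there and 4.14 at gained sites. The AP-1 motif TGACTCA lay at 168 kept (15.3%, 13.3 to 17.5), 1320 lost (9.35%, 8.88 to 9.84) and 408 gained sites (8.70%, 7.92 to 9.54), where backgrounds were 3.77%, 3.41% and 3.53%. Kept sites exceeded lost sites by 5.92 points (3.86 to 8.22), but among summits with a score of at least 10 the excess was 0.702 points (−2.22 to 4.08) and no longer past counting error. Gained and lost sites differed by −0.653 points (−1.57 to 0.309), and by −3.10 points (−4.32 to −1.88) at equal numbers of top-ranked summits. The TEAD motif GGAATGT stood at 5.55% (4.34 to 7.06) of kept, 5.52% (4.90 to 6.21) of gained and 3.42% (3.13 to 3.73) of lost sites, with backgrounds of 3.45%, 3.10% and 2.97%. The RUNX motif TGTGGTT stood at 7.36% (5.96 to 9.06) of kept and 5.76% (5.39 to 6.15) of lost sites, and at 4.48% (3.92 to 5.11) of gained sites it was near its background of 4.40%. None of the 8 motifs was found at 64.2% (63.4 to 64.9) of lost, 51.4% (50.0 to 52.8) of gained and 38.2% (35.4 to 41.1) of kept sites.

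**Figure D3:**
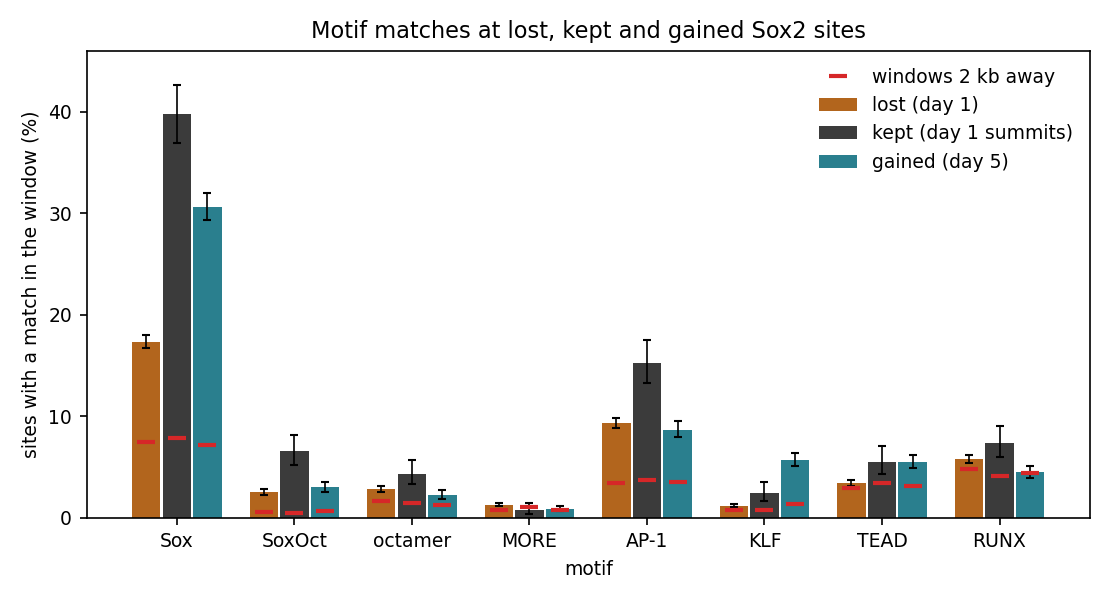
Share of lost, kept and gained Sox2 sites (y, %) with a match to each of 8 motifs (x) within 100 bp of the summit; black bars are Wilson 95% intervals and red dashes the share in windows 2 kb away. Sox stands at 39.7% of kept, 30.6% of gained and 17.3% of lost sites, and KLF is highest at gained sites with 5.69%.

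Kept sites scored higher than lost sites, so motifs were also compared within quartiles of score. In the top quartile, a Sox match lay at 41.1% (37.5 to 44.8) of 686 kept and 26.9% (25.3 to 28.5) of 3119 lost sites. In the last quartile the shares were 39.0% (28.8 to 50.1) of 77 kept and 11.8% (10.8 to 12.9) of 3727 lost sites. The Sox share of lost sites fell with day 1 score, and the intervals of the kept share in the top and last quartiles overlapped. Over day 5 scores the Sox share of kept sites went from 45.4% (41.3 to 49.5) in the top to 29.1% (21.2 to 38.5) in the last quartile, with intervals that do not overlap. For SoxOct the top quartile gave 6.27% (4.69 to 8.34) of kept and 4.46% (3.79 to 5.24) of lost sites, with overlapping intervals. The intervals did not overlap in the second quartile, at 8.33% (5.46 to 12.5) and 2.66% (2.18 to 3.25), nor in the third, at 7.22% (3.54 to 14.2) and 2.08% (1.66 to 2.59), and they overlapped in the last. AP-1 stood in the top quartile at 15.2% (12.7 to 18) and 14.0% (12.8 to 15.2), which also overlap. In the other quartiles the AP-1 share of kept sites lay above that of lost sites without overlap, at 15.8% (11.8 to 21) and 9.68% (8.75 to 10.7) in the second, 15.5% (9.6 to 24) and 7.82% (7 to 8.73) in the third, and 14.3% (8.17 to 23.8) and 6.68% (5.92 to 7.53) in the last. Among day 5 sites of the top quartile, a Sox match lay at 45.4% (41.3 to 49.5) of 560 kept and 47.4% (44.1 to 50.6) of 889 gained sites, and a KLF match at 3.39% (2.18 to 5.24) and 6.52% (5.08 to 8.34). For both motifs these intervals overlap.

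Oct4, the partner of Sox2, was found more often at kept sites. An Oct4 summit of day 1 lay within 100 bp of 323 kept sites (29.4%, 26.7 to 32.1) and 1300 lost sites (9.21%, 8.74 to 9.70), an excess of 20.2 points (17.5 to 23.0). At day 5 Oct4 stood at 185 of the 1101 kept day 5 summits (16.8%, 14.7 to 19.1) and 287 gained sites (6.12%, 5.47 to 6.84), an excess of 10.7 points (8.47 to 13.1). Within the top quartile of day 1 scores, Oct4 of day 1 was present at 33.8% (30.4 to 37.4) of kept and 22.8% (21.4 to 24.3) of lost sites. The majority of kept sites, 700 (63.6%), had no Oct4 summit at days 1, 5 or 7, as had 89.3% of lost and 89.4% of gained sites.

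SoxOct matches and Oct4 went together in each class. Of the 72 kept sites with SoxOct, 53 (73.6%, 62.4 to 82.4) had an Oct4 summit at day 1 and 43 (59.7%, 48.2 to 70.3) at day 5. Of the 359 lost sites with SoxOct, Oct4 stood at 127 (35.4%, 30.6 to 40.5) at day 1 and 70 (19.5%, 15.7 to 23.9) at day 5. Of the 141 gained sites with SoxOct, Oct4 of day 1 stood at 52 (36.9%, 29.4 to 45.1). That of day 5 was found at 65 (46.1%, 38.1 to 54.3) and that of day 7 at 70 (49.6%, 41.5 to 57.8). Oct4 summits of all 3 days lay at 74 kept (6.73%), 76 lost (0.538%) and 85 gained sites (1.81%), and SoxOct was matched at 44.6%, 36.8% and 40.0% of these. Where no Oct4 summit was called, SoxOct was matched at 1.43% of kept, 1.66% of lost and 1.24% of gained sites.

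Kept sites were also those most often bound by Sox2 in the other cocktails. At least 1 of the 4 other Sox2 lists had a summit at 860 kept (78.2%, 75.6 to 80.5), 1722 gained (36.7%, 35.3 to 38.1) and 2363 lost sites (16.7%, 16.1 to 17.4). Sox2 of Oct6-SK at day 1 stood at 20.8% (18.5 to 23.3) of kept and 4.07% (3.75 to 4.40) of lost sites, an excess of 16.8 points (14.4 to 19.3). Sox2 of Oct4defSox2-SK at day 1 stood at 38.5% (35.7 to 41.5) of kept and 8.46% (8.01 to 8.93) of lost sites, an excess of 30.1 points (27.2 to 33.0). At day 5 the same cocktail had Sox2 at 64.4% (61.5 to 67.2) of kept day 5 summits and 32.4% (31.0 to 33.7) of gained sites, an excess of 32.0 points (28.9 to 35.1). Lost sites had Sox2 in that cocktail at day 5 in 8.81% (8.35 to 9.29) of cases. The POU factors of day 1 were also found more often at kept than at lost sites, and gained sites had the lowest values, within overlapping intervals of the lost sites for Oct4defSox2. Oct4defSox2 stood at 68.5% (65.6 to 71.1) of kept, 22.7% (22 to 23.4) of lost and 21.4% (20.3 to 22.6) of gained sites. Oct4 S151M, an Oct4 mutant with raised homodimer formation, stood at 48.3% (45.3 to 51.2), 20.2% (19.6 to 20.9) and 15.2% (14.2 to 16.3). Oct6 M151S, listed at a lower threshold than the others, stood at 16.5% (14.4 to 18.8), 4.19% (3.87 to 4.54) and 3.26% (2.79 to 3.81). The lists differ in length, so shares are comparable between classes and not between lists. Lost sites among the best 5793 of day 1 were found in other lists more often than all lost sites. Of these 4972, 30.8% (29.5 to 32.1) had Sox2 in another cocktail, 40.9% (39.5 to 42.3) had Oct4defSox2 at day 1, 18.3% (17.3 to 19.4) had Oct4 at day 1 and 36.9% (35.6 to 38.3) had no summit of another list. No summit of any of the 11 other ChIP lists was found at 49 kept sites (4.45%, 3.39 to 5.84), 8704 lost sites (61.6%, 60.8 to 62.4) and 2330 gained sites (49.7%, 48.2 to 51.1).

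**Figure D4:**
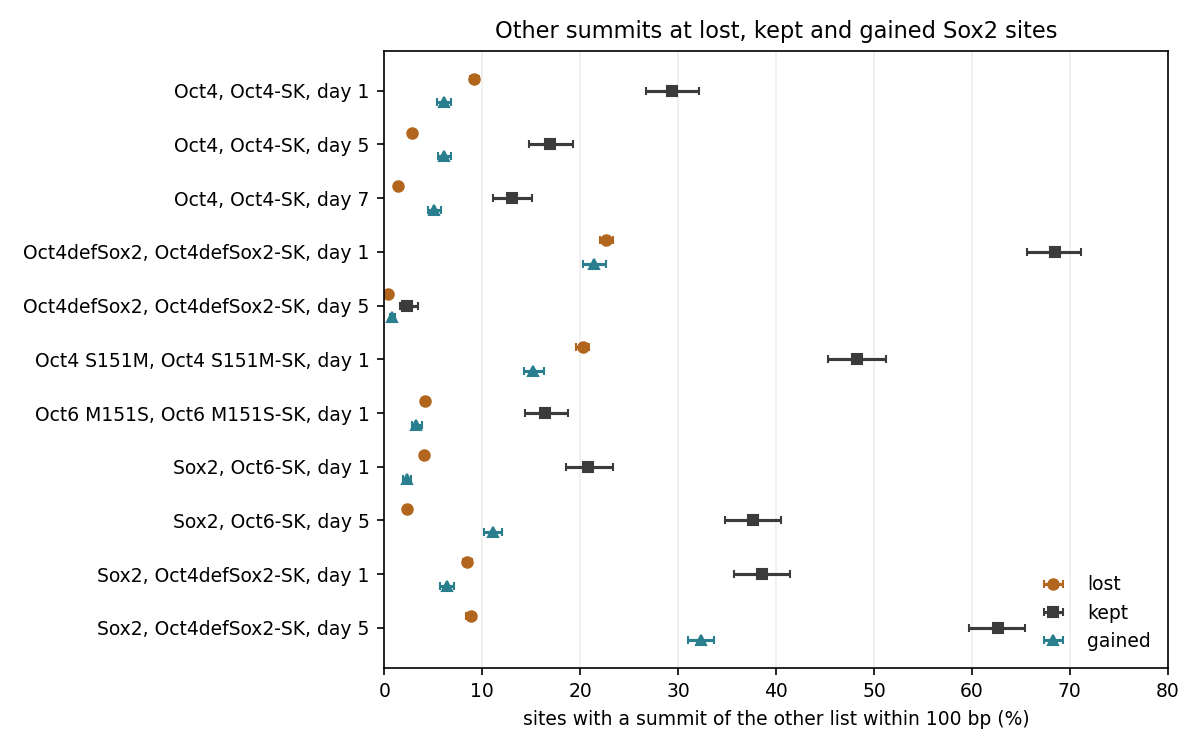
Share of lost, kept and gained Sox2 sites of Oct4-SK (x, %) with a summit of each of the 11 other ChIP lists (y) within 100 bp; bars are Wilson 95% intervals and kept sites are day 1 summits. In each list the kept sites stand to the right, for example at 68.5% against 22.7% of lost and 21.4% of gained sites for Oct4defSox2 at day 1.

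Gained sites lay closer to genes and in more GC-rich DNA. A transcription start lay within 1 kb of 570 gained sites (12.1%, 11.2 to 13.1), 73 kept sites (6.64%, 5.31 to 8.26) and 843 lost sites (5.97%, 5.59 to 6.37). Gained exceeded lost sites by 6.18 points (5.19 to 7.22), whereas kept and lost sites differed by 0.666 points (−0.719 to 2.34). That last difference was past counting error, 2.70 points (0.725 to 5.24), with a score of at least 10. The median distance to a start was 13545 bp at gained, 18967.5 bp at kept and 22128 bp at lost sites. GC content had a median of 45.3% at gained, 41.3% at kept and 38.8% at lost sites, and 5 or more CpGs were found in 18.6% (17.5 to 19.7), 8.00% (6.54 to 9.75) and 6.25% (5.86 to 6.66) of windows. A window of which at least 50% was soft-masked as repeat was found at 12.6% (12 to 13.1) of lost, 8.91% (8.13 to 9.76) of gained and 4.55% (3.46 to 5.94) of kept sites. Introns held 48.7% of lost, 51.5% of kept and 49.9% of gained sites.

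The KLF excess was seen at promoters and away from them. Among promoter sites, KLF stood at 14.4% (11.7 to 17.5) of 570 gained and 4.27% (3.10 to 5.86) of 843 lost sites, and 5 or more CpGs at 64.9% (60.9 to 68.7) and 41.9% (38.6 to 45.2). Among distal sites KLF stood at 4.49% (3.90 to 5.16) of 4122 gained and 1.01% (0.853 to 1.19) of 13276 lost sites. GC content moved with the KLF share, and its part in the difference was not tested. A Sox match at promoters was found at 29.6% (26 to 33.5) of gained, 35.6% (25.6 to 47.1) of kept and 13.2% (11.1 to 15.6) of lost sites.

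Genes were then grouped by lists, with a site counted for a gene when it lay within 50 kb of an annotated start. Over the 21911 coding genes, 39.0% had a day 1 site, 23.9% a day 5 site, 4.18% a kept site, 37.2% a lost site and 21.1% a gained site. A site near a start is not shown to act on that gene, and genes that lie close together share sites.

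Of 30 core and naive pluripotency genes, 12 had a day 1 site and 9 a day 5 site. Kept sites were found at 2 of them (6.67%), lost sites at 10 (33.3%) and gained sites at 9 (30.0%). Pou5f1, which encodes Oct4, had 2 kept and 3 gained sites. One kept site lay upstream, on the side of the distal enhancer, with summits at −1934 bp at day 1 and −1939 bp at day 5. It held SoxOct and Sox matches and scored 7.34 and 13.6. The other kept site of Pou5f1 lay in its coding exon at 286 bp and scored 28.0 at day 1 and 102 at day 5. Sox2 had a kept site in its own coding exon, which scored 26.1 and 51.7. A gained site there scored 38.7 and was another summit of the same day 5 peak. The coding sequences of Pou5f1 and Sox2 were also carried by the retroviral vectors, and reads from vector and gene cannot be told apart in summit lists. Sox2 of Oct6-SK, whose cocktail holds Oct6 in place of Oct4, had a summit at the same Pou5f1 exon that scored 71.5 at day 1 and 33 at day 5. Sox2 of Oct4defSox2-SK, whose vector carries a mutant Pou5f1 sequence, scored 32.6 there at day 1 and 281 at day 5. No summit lay in an exon of Klf4 on either day. Klf2, a naive pluripotency factor, gained a site at −2762 bp with a Sox match, which scored 26.4, and Klf4 lost a site at 6264 bp, which scored 18.8. Spry4, a feedback inhibitor of FGF signalling, gained a site at −85 bp that scored 39.0.

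Of 30 epithelial genes, 14 had a day 1 site and 13 a day 5 site, with kept sites at 1 (3.33%), lost sites at 13 (43.3%) and gained sites at 12 (40.0%). Dsp, which encodes the desmosome protein desmoplakin, gained a site with a Sox match at −42019 bp that scored 48.1. St14, a membrane serine protease gene, gained a site that scored 17.9. The keratin genes Krt8 and Krt18 shared 1 gained site, which scored 15.3.

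Of 35 mesenchymal and fibroblast genes, 24 had a day 1 site (68.6%) and 10 a day 5 site (28.6%). Lost sites stood at all of these 24, kept sites at 1 (2.86%) and gained sites at 9 (25.7%). Fn1, the fibronectin gene, had a lost site in an intron at 38253 bp that scored 25 and a gained one at 38368 bp that scored 18.5, so these are neighbouring summits just past the sharing distance. Vim, the gene of vimentin, had 5 lost sites, scoring between 4.26 and 16.3, and 1 gained site, which scored 11.2. Fbn1, a microfibril gene, held the kept site of this list, which scored 24.2 at day 1 and 9.48 at day 5. Runx1, a RUNX factor gene, had 3 lost sites, the highest at 13.4, and 2 gained sites. Tcf4, a basic helix-loop-helix factor gene, had 6 lost sites, the highest at 11.6, and 2 gained sites, the higher at 9.63. The highest lost and the higher gained site of Tcf4, at 14834 and 14681 bp, are neighbouring summits, as are a lost and a gained site of Runx1 at 15930 and 16068 bp.

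Of 19 AP-1 and TEAD genes, 8 had a day 1 site and 10 a day 5 site, with kept sites at 2 (10.5%), lost sites at 6 (31.6%) and gained sites at 8 (42.1%). Ccn2, a target of YAP and TEAD, held a kept site at −4740 bp that scored 5.87 at day 1 and 20.6 at day 5. Tead1 gained sites that scored 20.6 and 15.2 and lost sites that scored 5.54 and 6.22. Ccn1 had 2 lost and 2 gained sites, while the coactivator gene Yap1 and Tead2 each had 1 lost site, which scored 10.2 and 9.19. Of 23 TGF-beta signalling genes, 11 had a day 1 and 9 a day 5 site, with kept sites at 2 (8.70%), lost sites at 10 (43.5%) and gained sites at 9 (39.1%). The receptor gene Tgfbr2 held a kept site that scored 8.62 and 17.0. Id1 and Id2, inhibitors of basic helix-loop-helix factors, each had 1 lost and 2 gained sites, the highest of which scored 17.0 in both. Smad2, a signal transducer, had 1 lost and 1 gained site, and the repressor gene Tgif1 had 2 gained sites and none at day 1.

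Of 30 neural progenitor genes, 13 had a day 1 site and 15 a day 5 site, with kept sites at 4 (13.3%), lost sites at 12 (40.0%) and gained sites at 14 (46.7%). Beside Sox21, shown above, Dll1, a Notch ligand gene, held a kept site with a Sox match that scored 27.7 at day 1 and 18.5 at day 5, and gained a site with SoxOct, Sox and KLF matches that scored 12.7. Six6, an eye and forebrain homeobox gene, held a kept site with an AP-1 match that scored 7.74 and 19.7. Dll3 gained a site that scored 20.6. Pou3f1, which encodes Oct6, held a kept site in its coding exon that scored 23.9 and 17.5. At the day 5 summit of this site, Oct6 M151S scored 344 and Sox2 of Oct6-SK 43.6 at day 1. The vectors of those cells carry the Pou3f1 coding sequence, so that vector and gene cannot be told apart in them. Sox2 of Oct4defSox2-SK, whose cocktail holds no Oct6, also had summits there, which scored 13.8 at day 1 and 48.0 at day 5. A gained site in the Pou3f1 coding exon scored 8.19.

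Of 14 other Sox family genes, 7 had a day 1 site and 7 a day 5 site, with kept sites at 3 (21.4%), lost sites at 5 (35.7%) and gained sites at 7 (50.0%). Sox17 had a kept and 2 gained sites, all in coding exons. The kept one scored 24.5 at day 1 and 87.0 at day 5. A gained one at 79.1 was another summit of the kept site's day 5 peak, and the other scored 45.4. None held a Sox or SoxOct match or an Oct4 summit of Oct4-SK. At day 5, Sox2 of Oct6-SK scored 36.0 at the kept site and 18.7 and 14.7 at the gained ones. Sox2 of Oct4defSox2-SK scored 121 at the last of these at day 5. Sox13 had a kept site in an intron, which scored 19.7 and 54.2, and gained sites that scored 48.1 and 7.86. Sox6 held a kept site that scored 17.0 and 4.35, Sox9 gained one that scored 23.6, and Sox15 gained one that scored 15.2. The shares of kept and gained sites in these lists rest on few genes, and the lists were chosen with earlier results of these data known, so they are descriptions beside the shares over all coding genes.

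**Figure D5:**
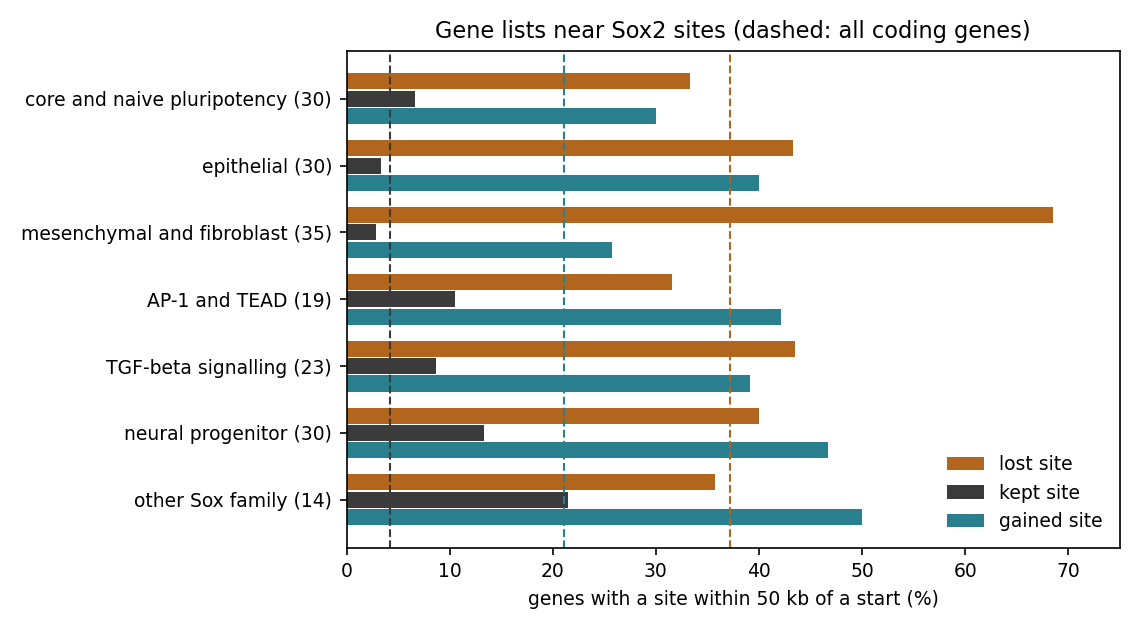
Share of the genes of 7 lists (y, number of genes in brackets) with a lost, kept or gained Sox2 site within 50 kb of a start (x, %); dashed lines give the same shares over all coding genes, 37.2%, 4.18% and 21.1%. Lost sites stand at 68.6% of mesenchymal and fibroblast genes and gained sites at 50.0% of other Sox family genes.

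The coding genes with the most Sox2 sites were led by Pde4d, a cAMP phosphodiesterase gene, with 10 day 1 and 5 day 5 sites, of which 2 were kept. Its strongest kept site, in an intron and with a Sox match, scored 40.4 at day 1 and 20.3 at day 5. Foxp1, a forkhead factor gene, had 8 day 1 and 4 day 5 sites with 1 kept, and Tcf12, a basic helix-loop-helix factor gene, 9 and 3 with 1 kept. Rere, a corepressor gene, and Anxa2, the gene of annexin A2, had 10 sites each, of which 2 and 1 day 1 sites were kept. Mast4 and Prickle2 had 10 sites each and none kept, and Sgms1, a sphingomyelin synthase gene, had 10 with 1 kept. The other 4 genes of this group, Hist1h2ak, Hist1h2bn, Hist1h4k and Olfr1359, lie close together on chromosome 13 and had 7 day 1 and 3 day 5 sites each, most of them the same sites.

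The loss of Sox2 sites in Oct4-SK was set beside that in the other cocktails. Oct6-SK kept 327 of 3242 day 1 sites (10.1%, 9.10 to 11.2), a difference of −2.86 points (−4.01 to −1.78) for Oct4-SK minus Oct6-SK. When all 4 lists were held to the same number of top-ranked summits, the direction turned to 5.88 points (4.01 to 7.75). Oct4defSox2-SK kept 1894 of 5793 day 1 sites (32.7%, 31.5 to 33.9), a difference of −25.5 points (−26.8 to −24.2) that shrank to −7.87 points (−9.27 to −6.48) with the 4 lists at equal numbers. Its day 5 list of 21551 sites was the longest of the Sox2 lists. With 2669 top-ranked summits in each of the 6 lists, the kept share was 17.2% (15.8 to 18.6) in Oct4-SK. For Oct6-SK it was 11.3% (10.1 to 12.5), and for Oct4defSox2-SK 21.1% (19.6 to 22.6).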

How the data were processed

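Per the submitters' processing notes and the study's methods, reads were checked with FastQC, aligned to mm10 with Bowtie2 2.2.5, filtered with SAMtools and called with MACS2 in each library separately. The authors deposited summit lists with a −log10 p-value from MACS2 as the score. These lists hold no read counts, so read depth was not used here, and scores, which grow with depth, were not scaled between libraries. No input library was used here. The Oct6 M151S list was called at a looser threshold, with a lowest score of 2.30, its labels give the day as 1 and as 2, and it served for positions only.

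Summits were compared by distance with Python 3.11.15, numpy 2.4.6, pandas 2.3.3 and scipy 1.17.1, and plotted with matplotlib 3.10.9. At day 1, 3 of 15222 deposited summits, and at day 5, 39 of 5832, lay off chromosomes 1 to 19, X and Y and were left out. Annotation was GENCODE M21 basic, and sequence came from GRCm38.p6, where 0 summits lay past a chromosome end. Tied scores were ranked in file order. The motif search and intervals were tested on simulated data.

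The sites named are the 4 highest-scoring of each class and its highest-scoring SoxOct site, ranked by the day's score for lost and gained sites and by the mean of both days' scores for kept sites. The genes named are the 5 of each list with the highest-scoring site and the 12 coding genes with the most sites. 1 gene that this rule names is not reported here. Members and lists were chosen with earlier results of these data known. Alternatives were the sharing distance, a minimum score, equal numbers of summits, the motif window and mismatches, the promoter distance, 1 summit per peak, and dropping sites where each of the 3 antibodies had a summit. Reversing the order of ties and leaving out coding-exon summits were chosen after seeing the data.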

Additional observations from a re-analysis of the deposited data

How the results depend on the processing

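Of 141 alternative values for 16 differences, 128 kept their side of counting error without a called reversal, and 11 of the differences did so under each alternative run. The kept share of day 1 sites was 4.36% with a sharing distance of 50 bp, 9.62% with 250 bp, 11.8% with a score of at least 10, 14.2% at equal numbers of top-ranked summits in either order of ties, and 6.18% without sites with summits of all 3 antibodies. The share of day 5 sites present at day 1 was 11.5%, 25.5%, 21.8%, 14.2% and 16.3% under the same settings. The AP-1 excess of kept over lost sites was 0.702 points with a score of at least 10. The SoxOct difference between gained and lost sites came past counting error at 0.577 points with a sharing distance of 50 bp, 0.558 without sites with all 3 antibodies, 0.473 with a motif window of 50 bp and 0.356 with up to 1 mismatch, and turned to −1.22 with up to 3 mismatches; at equal numbers it was −0.482, within counting error. For AP-1 the same difference was −2.03 with a score of at least 10, −3.10 at equal numbers and −3.24 with ties reversed. The promoter difference between kept and lost sites was 2.05 points with a sharing distance of 50 bp and 2.70 with a score of at least 10. The kept share of Oct4-SK minus that of Oct6-SK turned to 5.88 points at equal numbers and 5.84 with ties reversed. Other differences stayed past counting error but moved by over 1.5 times. At equal numbers the AP-1 excess of kept over lost sites was 3.12 points. With a score of at least 10, the excess of Oct4 of day 1 at kept over lost sites was 12.7 points and that of Oct4defSox2-SK Sox2 of day 5 at kept over gained sites 17.8. With a motif window of 50 bp the KLF excess of gained over lost sites was 2.48, and with promoters of 5 kb the promoter excess was 9.63. With a sharing distance of 50 bp the excess of Oct6-SK Sox2 of day 1 at kept over lost sites was 10.9, and the kept share of Oct4-SK differed by −1.81 from Oct6-SK and −15.8 from Oct4defSox2-SK. Without sites with all 3 antibodies the difference from Oct6-SK was −1.78. The causes were not tested. No paired analysis was possible because each day was sampled by 1 library. Read depth was not used, the day 1 list is longer than that of day 5, and a site missing from a list may lie under its threshold, so a lost or gained site is one not called within 100 bp and not one shown to be unbound.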

Other observations

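The kept share varied between chromosomes from 3.09% (1.57 to 5.98) on X to 9.74% (7.74 to 12.2) on chromosome 14. X held 259 day 1 and 50 day 5 sites, a ratio of 0.193, and on the other chromosomes tested the ratio lay between 0.319 and 0.492.

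The highest day 1 score of all, 77.8, stood in a coding exon of the predicted gene Gm10800, where the day 5 score was 37.0. A second kept site in that gene scored 47.4 at day 1 and 38.9 at day 5. At both places Sox2 also had summits at day 5 in Oct4defSox2-SK, with scores of 76.6 and 65.7, and in Oct6-SK, with scores of 48.1 and 38.2. Oct4 had a day 5 summit of Oct4-SK at the first, which scored 8.16. Regions prone to artefact signal were not filtered out here, and whether these sites reflect Sox2 binding was not tested.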
